A study of Mus musculus with 2 samples.

Results

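The genes described here build and run the contractile apparatus of muscle: myosin heavy and light chains, troponins, tropomyosins, alpha-actinins and calsequestrins, together with striated muscle actins, muscle enzymes, calcium channels, acetylcholine receptor subunits and myogenic transcription factors. They were chosen by gene symbol from probe sets that the platform annotation assigns to 1 gene, which gave 80 of 10833 such probe sets and 61 of 8251 genes. The symbol rule itself uses no measured value, but it was set with earlier results of these data known. Of the genes that the rule names singly, Ttn and Neb had no single-symbol probe set in this table.

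The K5 knockout group was skin of newborn mice lacking keratin 5 (K5-/-), and the wild type group was skin of newborn wildtype mice. Total RNA of 6 animals per group was pooled, and each pool was read on 1 array. Keratin 5 is a structural keratin of basal keratinocytes, and its loss models epidermolysis bullosa simplex, a blistering disease. The source name speaks of epidermis, whereas titles and protocol speak of skin, and no separation of the epidermis is described. The deletion is not described as restricted to 1 cell type, and strain and sex are not given in the sources used here.

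Skeletal muscle fibres contract when an action potential activates the calcium channel complex at the membrane. Calcium then leaves the sarcoplasmic reticulum, and troponin shifts tropomyosin on the actin filament. Fast and slow fibres use different isoforms of most sarcomere proteins, and fetal fibres use a further set that is replaced after birth. Mouse skin has a thin sheet of striated muscle beneath the dermis, the panniculus carnosus, and smooth muscle in vessel walls and in the muscles of the hairs. In bulk tissue, more cells of a type and more RNA per cell cannot be told apart.

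Values are MAS5 signals, which are intensities on a linear scale. Signals below a floor of 246.7 units, the 40th percentile of all values, were raised to that floor before ratios were taken. A gene counted as measured when it exceeded the floor on at least 1 array. Where a gene had more than 1 probe set, the brightest over both arrays stood for it. Ratios are knockout over wild type on the log2 scale. With 1 array per group there was no test, and every value compares these 2 arrays. Over 838 genes with several probe sets above the floor, probe sets of the same gene differed with a standard deviation of 0.30 in log2 ratio, which holds no variation between animals or pools.

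Genes of striated muscle that the symbol rule takes read slightly higher as a group in knockout skin, and few of them by much. Of the 61 genes, 48 were measured and 13 lay at the floor on both arrays. At the 2-fold limit, 1 of the 48 was higher and 0 were lower, against a background of 2.24% of all 5976 measured genes past that limit in either direction, so the count of muscle genes past 2-fold was near the background. The direction was more one-sided than the size. Of 38 measured genes of striated muscle, 32 were higher and 6 lower, which is 84.2% higher against 53.9% of all measured genes. Actn2 and Chrnd, 2 of the 32, exceeded the floor in the knockout alone and so could only be higher; of the 36 that exceeded it in both pools, 30 were higher, or 83.3%, against 52.9% of all such genes. Their median log2 ratio was 0.26, against 0.04 over all measured genes. For 37 measured muscle genes that the rule does not take, described below, the median was 0.05, with 24 higher and 13 lower.

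At 1.5-fold, a limit added after the values were seen, 8 of the 38 striated muscle genes were higher, or 21.1%, against a background of 7.63%. This count depended on the setting: it was 5 of 38, or 13.2%, as the mean over probe sets, against 6.09% of all genes, and 5 of 31, or 16.1%, for a floor at the 60th percentile, against 5.11%. In the mean, Myh8 and Tpm3 fell below the limit because their second probe set was at the floor on both arrays and entered as 0. The 8 genes were Myh7, Myh8, Myh1, Myod1, Myog, Tpm3, Atp2a1 and Tnnt3. None of the 38 was 1.5-fold lower, against a background of 5.27%. Among the 25 striated muscle genes with a mean signal of at least 1000, 20 were higher, against 48.6% of all 3124 genes that bright, with a median of 0.23 against -0.01. Among the 11 dimmer ones that exceeded the floor in both pools, 10 were higher, against 58.6% of all 2394 such genes, with a median of 0.48 against 0.08.

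**Figure D1:**
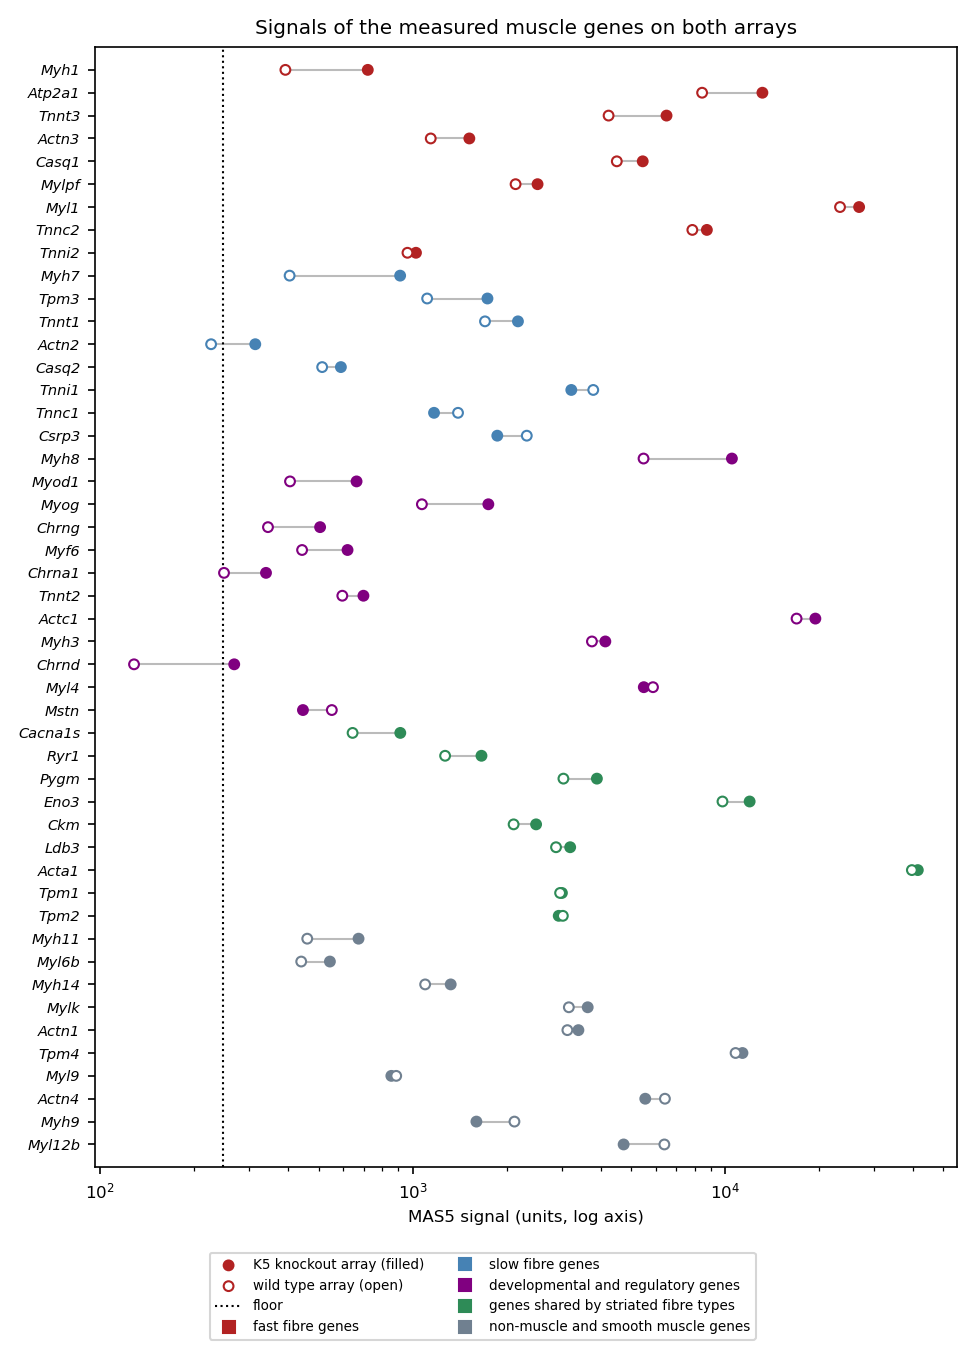
MAS5 signal on a log axis for each of the 48 measured muscle genes on the K5 knockout array (filled points) and the wild type array (open points), coloured by class, with the floor of 246.7 units dotted. The widest gaps between filled and open points among genes that exceeded the floor in both pools belong to Myh7, Myh8 and Myh1, and the 2 points of Acta1, Tpm1 and Tpm2 nearly coincide.

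The fast fibre class, which holds only genes that the symbol rule takes, was higher in every measured member. All 9 measured genes of this class had a higher signal on the knockout array, with log2 ratios from 0.09 to 0.88 and a median of 0.28, and their summed signal was 66630 in knockout skin and 53113 in wild type skin, a ratio of 1.25. Myh1, the myosin heavy chain of fast IIx fibres, read 719 in knockout skin, against 392 in wild type skin, 1.84-fold higher, with a bound of 0.12 in log2 ratio when the floor was the 60th percentile. Atp2a1, the fast fibre calcium pump that refills the sarcoplasmic reticulum, read 13196 in knockout skin and 8460 in wild type skin, 1.56-fold higher. Its other probe set gave a log2 ratio of 0.47, against 0.64 for the brighter one. Both Atp2a1 probe sets are of kinds that may detect related transcripts. The gene therefore has no value from plain probe sets, which leave those kinds out. Tnnt3, the fast troponin T that ties the troponin complex to tropomyosin, read 6508 in knockout skin and 4245 in wild type skin, 1.53-fold higher.

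The remaining fast genes showed smaller differences, of a size that probe sets of the same gene also show. Actn3, the alpha-actinin that anchors actin at the Z-disc of fast fibres, read 1520 in knockout skin and 1144 in wild type skin, a log2 ratio of 0.41, and 0.59 from a second probe set. Casq1, the calcium store protein of fast fibres, read 5460 in knockout skin and 4510 in wild type skin (0.28). Mylpf, the fast regulatory light chain, read 2514 in knockout skin and 2138 in wild type skin (0.23), with -0.03 from a second probe set. The sign for Mylpf therefore depended on the probe set.

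Myl1, the fast essential light chain, read 26926 in knockout skin and 23389 in wild type skin, a log2 ratio of 0.20. Tnnc2, the calcium-binding fast troponin C, read 8762 in knockout skin and 7872 in wild type skin (0.15). That probe set may detect related transcripts. The plain Tnnc2 probe set was at the floor, with 19.0 in knockout skin and 3.90 in wild type skin. Tnni2, the inhibitory fast troponin, read 1026 in knockout skin and 963 in wild type skin (0.09). These were the smallest ratios of the class. Myh2 and Myh4, the heavy chains of IIa and IIb fibres, were at the floor on both arrays and have no ratio. Their signals were 13.7 and 160 in the knockout and 14.7 and 218 in the wild type. Pvalb, a fast fibre gene that the symbol rule does not take, read 3011 in knockout skin and 3370 in wild type skin (-0.16). It belongs to a list of other muscle genes described below, of which 24 were higher and 13 lower.

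Slow fibre genes, most of which the heart also uses, were split. Of 14 genes, 8 were measured, 5 higher and 3 lower, with a median log2 ratio of 0.27 and a range from -0.31 to 1.18. The summed signal of the measured members was 11994 in knockout skin and 11476 in wild type skin, a ratio of 1.05. The direction of this median depended on the probe sets: from plain probe sets only, without those that may detect related transcripts, it was -0.13 over 7 genes.

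Myh7, the slow myosin heavy chain, read 913 in knockout skin, against 404 in wild type skin, 2.26-fold higher, and was the 1 muscle gene past 2-fold. Its second probe set read 477 in knockout skin and 169 in wild type skin, a log2 ratio of at least 0.95. Both Myh7 probe sets are of the kind that Affymetrix marks as matching a sequence family, so that other heavy chain transcripts could contribute to them, and the value is uncertain. With the floor at the 60th percentile the Myh7 ratio was a bound of 0.47, and when the floor was replaced by a pseudocount it was 0.83.

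Tpm3, a tropomyosin of slow fibres that also has forms outside muscle, read 1738 in knockout skin and 1114 in wild type skin, a log2 ratio of 0.64. Its second probe set was at the floor, with 68.5 in knockout skin and 38.2 in wild type skin. The mean over both Tpm3 probe sets was 0.32, in which the probe set at the floor counts as 0 and adds no measurement. Tnnt1, the slow troponin T, read 2176 in knockout skin and 1706 in wild type skin (0.35), but -0.13 from a second, plain probe set. Casq2, the calcium store protein of slow and heart muscle, read 590 in knockout skin and 514 in wild type skin (0.20). Among these 3 genes the direction of Tnnt1 was thus unsettled. Actn2, the alpha-actinin of all striated fibres, read 314 in the knockout and was under the floor on the wild type array (226), a log2 ratio of at least 0.35.

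The 3 lower genes of the class were Tnni1, Tnnc1 and Csrp3. Tnni1, the slow inhibitory troponin, read 3225 in knockout skin and 3791 in wild type skin, a log2 ratio of -0.23. Tnnc1, the troponin C of slow fibres and heart, read 1172 in knockout skin and 1399 in wild type skin (-0.26). Csrp3, a Z-disc LIM protein also called muscle LIM protein, read 1868 in knockout skin and 2322 in wild type skin (-0.31). Each difference was about the size of the spread between probe sets or smaller. The other 6 genes, Myh6, Myl2, Myl3, Myl7, Tnni3 and Mybpc3, were at the floor on both arrays, with signals from 21.7 to 155 in the knockout and from 14.2 to 146 in the wild type. Myh6, Myl7, Tnni3 and Mybpc3 are chiefly heart genes, and Myl2 and Myl3 serve both ventricle and slow fibres.

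Fast isoforms were set beside their slow or general counterparts, a pairing made after the values were seen. Of 8 pairs, 5 had both members above the floor on both arrays, and in 4 of these the fast isoform had the higher log2 ratio. The difference, fast minus slow, was 0.41 for Tnnc2 and Tnnc1, 0.32 for Tnni2 and Tnni1, 0.27 for Tnnt3 and Tnnt1, and 0.08 for Casq1 and Casq2. For the heavy chains Myh1 and Myh7 it was -0.30, the other way round. The 3 troponin pairs thus leaned the same way, by amounts close to the 0.30 between probe sets. However, the Tnnt1 value changes sign with the probe set, and the plain Tnnc2 probe set was at the floor on both arrays. For Actn3 and Actn2 the slow side is a bound, so the order is not known, and the counterparts of Mylpf and Myl1 were at the floor.

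**Figure D2:**
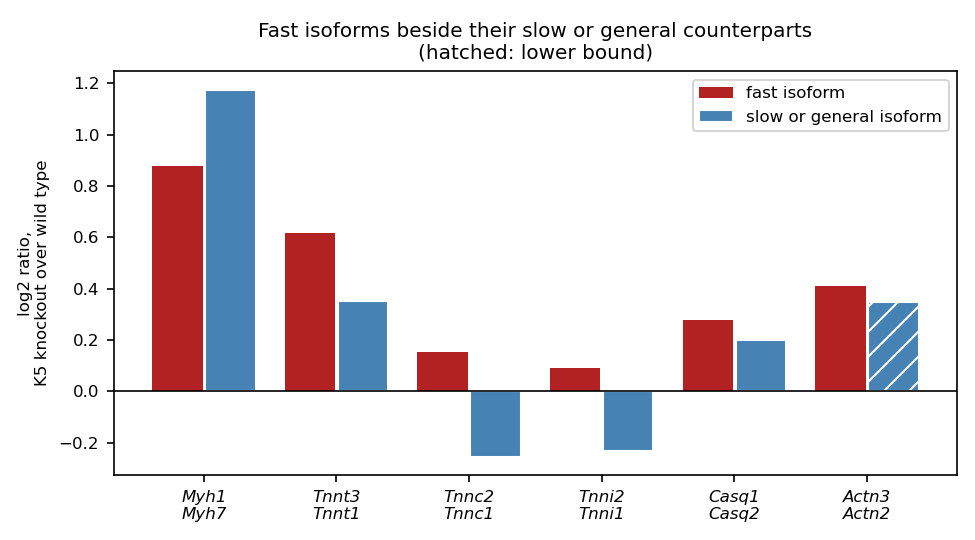
Log2 ratio of K5 knockout over wild type for 6 fast isoforms (red bars) and their slow or general counterparts (blue bars); 1 value per gene, without error bars because there is 1 array per group. Tnnc1 and Tnni1 lie below 0 while Tnnc2 and Tnni2 lie above it, Myh7 exceeds Myh1, and the hatched Actn2 bar is a lower bound.

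Developmental and regulatory genes were mostly higher. Of 13 genes, 12 were measured, 10 higher and 2 lower, with a median log2 ratio of 0.34 and a range from -0.31 to 0.94. Their summed signal was 44973 in knockout skin and 35903 in wild type skin, a ratio of 1.25. Members above the floor on both arrays had a median of 0.45 over 11 genes, and the 7 genes measured with the floor at the 60th percentile had one of 0.14. The order of this class and the fast class turned with the setting: the median was 0.34 for the fast and 0.28 for the developmental genes with quantile normalization.

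The myogenic regulatory factors, helix-loop-helix proteins that commit cells to muscle and switch on contractile genes, were higher where measured. Myod1, which acts in myoblasts, read 662 in knockout skin and 405 in wild type skin, 1.63-fold higher. Myog, or myogenin, which drives differentiation and fusion, read 1749 in knockout skin and 1072 in wild type skin, also 1.63-fold higher. Myf6, the factor of maturing fibres, read 619 in knockout skin and 443 in wild type skin, 1.40-fold higher. All 3 measured factors were thus higher, Myog at signals well clear of the floor and Myod1 and Myf6 nearer to it. With the floor at the 60th percentile the Myod1 ratio was a bound of 0.0048. Myf5, the factor of early progenitors, was at the floor, with 73.4 in knockout skin and 84.9 in wild type skin. Mstn, or myostatin, a secreted inhibitor of muscle growth, read 446 in knockout skin and 552 in wild type skin, a log2 ratio of -0.31. It was the lowest of the measured developmental and regulatory genes.

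Myosin heavy chains of development gave unequal ratios. Myh8, the perinatal heavy chain, read 10538 in knockout skin, against 5493 in wild type skin, 1.92-fold higher. Myh3, the embryonic heavy chain, read 4144 in knockout skin and 3755 in wild type skin, 1.10-fold higher. The perinatal chain therefore stood further from 0 than the embryonic one on these arrays. The Myh8 value rests on 1 probe set made under relaxed design rules. The other Myh8 probe set, of the same kind, was at the floor on both arrays, with 4.10 in knockout skin and 2.70 in wild type skin. The mean over both gave a log2 ratio of 0.47 in place of 0.94. A probe set at the floor on both arrays enters that mean as 0, so the lower value is not a second measurement of Myh8.

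Myh3, Myh2, Myh1, Myh4 and Myh8 lie next to each other in this order on chromosome 11 in the RefSeq gene table of GRCm38.p6. The start regions of Myog and of 3 of these heavy chain genes are shown because they are the regulator and the neighbouring fibre genes whose ratios differed (Myh1, Myh8) or hardly differed (Myh3). Each window, from RefSeq on GRCm38.p6, runs from 250 bases before to 50 bases after the annotated start and is printed 5′ to 3′ on the gene's strand (the plus strand for all 4). Capitals mark E-boxes (CANNTG, the sequence bound by myogenic factors), TATAAA on either strand, and MEF2 sites, the sequence of another muscle regulator family. MEF2 sites were taken as YTAWWWWTAR, where Y is C or T, W is A or T, and R is A or G. All were searched on both strands.
Myog, chr1:134289754-134290053: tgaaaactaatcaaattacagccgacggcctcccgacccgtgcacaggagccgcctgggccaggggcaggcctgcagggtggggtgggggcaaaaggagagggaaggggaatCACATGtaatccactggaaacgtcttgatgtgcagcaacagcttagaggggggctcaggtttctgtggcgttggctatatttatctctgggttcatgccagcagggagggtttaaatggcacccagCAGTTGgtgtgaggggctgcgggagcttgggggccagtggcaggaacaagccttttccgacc
Myh3, chr11:67078050-67078349: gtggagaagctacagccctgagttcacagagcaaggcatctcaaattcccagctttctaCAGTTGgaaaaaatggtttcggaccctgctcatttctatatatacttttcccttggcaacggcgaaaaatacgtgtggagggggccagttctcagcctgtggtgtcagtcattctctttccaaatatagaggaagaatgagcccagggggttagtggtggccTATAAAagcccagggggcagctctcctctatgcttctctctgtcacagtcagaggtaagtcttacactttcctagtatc
Myh1, chr11:67199852-67200151: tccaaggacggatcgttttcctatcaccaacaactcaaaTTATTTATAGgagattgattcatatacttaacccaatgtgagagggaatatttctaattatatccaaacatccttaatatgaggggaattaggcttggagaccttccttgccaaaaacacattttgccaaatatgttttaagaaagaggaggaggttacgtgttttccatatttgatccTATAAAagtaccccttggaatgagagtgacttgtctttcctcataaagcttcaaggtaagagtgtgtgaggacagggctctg
Myh8, chr11:67276874-67277173: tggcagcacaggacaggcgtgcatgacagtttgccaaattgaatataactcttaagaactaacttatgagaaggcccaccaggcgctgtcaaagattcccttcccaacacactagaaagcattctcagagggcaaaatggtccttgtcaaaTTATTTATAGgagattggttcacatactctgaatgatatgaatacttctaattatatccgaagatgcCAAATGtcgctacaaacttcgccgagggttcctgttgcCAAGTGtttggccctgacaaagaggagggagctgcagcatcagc

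The Myog window held 2 E-boxes, which begin 138 and 12 bases before the start. It held no full MEF2 match, but its stretch ctatatttat misses the pattern only at the last base. The Myh8 window held 2 E-boxes and a MEF2 match, the Myh1 window a MEF2 match and a TATAAA 32 bases before the start, and the Myh3 window 1 E-box and a TATAAA 29 bases before the start. The MEF2 matches of Myh1 and Myh8 each contain a TATAAA on the opposite strand and lie in an identical run of 22 bases. The longest run that any other pair of the 4 windows shares was 8 to 10 bases.

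Promoter windows were found for 54 of the 61 genes and for 42 of the 48 striated muscle genes, some of which have more than 1 start. At least 1 E-box was present in 44 of the 51 windows of striated muscle genes, or 86.3%, against 72.3% of all 32851 windows, so that most promoters hold one. A MEF2 match was present in 5 of the 51, or 9.8%, against 3.19% of all windows. TATAAA was present in 13 of the 51, or 25.5%, against 13.6% of all windows. A match is a description of the letters and no evidence of binding.

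Subunits of the muscle acetylcholine receptor, the channel by which nerve excites muscle, were dim. Chrng, the gamma subunit of fetal receptors, read 506 in knockout skin and 344 in wild type skin, 1.47-fold higher, and its second probe set gave a log2 ratio of 0.52, against 0.55. Chrna1, the alpha subunit, read 339 in knockout skin and 249 in wild type skin, just above the floor, with a ratio of 0.45. Chrnd, the delta subunit, read 269 in the knockout and was under the floor on the wild type array (128), a log2 ratio of at least 0.12. The 3 subunits were all higher, though Chrnd exceeded the floor in the knockout alone and so could only be higher. Of the 3, only Chrng was read by more than 1 probe set above the floor. Subunit genes that the symbol rule does not take, Chrnb1 and Chrne, went both ways. Chrnb1 read 389 in knockout skin and 369 in wild type skin (0.08), and Chrne read 465 in knockout skin and 525 in wild type skin (-0.17).

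Heart-type proteins that fetal skeletal muscle also uses differed less. Tnnt2, the cardiac troponin T, read 696 in knockout skin and 596 in wild type skin, a log2 ratio of 0.22. Actc1, the cardiac alpha-actin, read 19500 in knockout skin and 16978 in wild type skin, with 0.20, and 0.08 from its other probe set. Myl4, the atrial and embryonic essential light chain, read 5504 in knockout skin and 5889 in wild type skin (-0.10), but its second probe set read 1483 in knockout skin and 1021 in wild type skin (0.54). The direction of Myl4 is therefore not settled by these arrays.

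Genes that fast and slow fibres share were higher in 8 of 9 measured cases, by small amounts. Their log2 ratios ran from -0.04 to 0.51, with a median of 0.24, and their summed signal was 71620 in knockout skin and 65503 in wild type skin, a ratio of 1.09. None reached 1.5-fold. The proteins of excitation-contraction coupling led the class. Cacna1s, the voltage sensor of the muscle calcium channel, read 914 in knockout skin and 643 in wild type skin, 1.42-fold higher. Ryr1, the calcium release channel of the sarcoplasmic reticulum, read 1663 in knockout skin and 1272 in wild type skin, 1.31-fold higher.

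The calcium handling genes that the symbol rule takes were Atp2a1, Casq1, Casq2, Cacna1s and Ryr1. All were higher, with log2 ratios from 0.20 for Casq2 to 0.64 for Atp2a1, where 53.9% of all measured genes were higher. Calcium handling genes that the rule does not take went both ways. Hrc (0.50) and Cacng1 (0.40) were higher, and Pvalb (-0.16) and Fkbp1a (-0.33) were lower. The metabolic enzymes followed. Pygm, the muscle glycogen phosphorylase, read 3894 in knockout skin and 3043 in wild type skin, a log2 ratio of 0.36. Eno3, the muscle enolase, read 12011 in knockout skin and 9831 in wild type skin (0.29). Ckm, the muscle creatine kinase that buffers ATP, read 2487 in knockout skin and 2107 in wild type skin (0.24). That Ckm probe set may detect related transcripts. The plain Ckm probe set read 277 in the knockout and was under the floor on the wild type array (102), a log2 ratio of at least 0.17. From the brightest probe set of each, all 3 enzyme genes were higher by less than 1.5-fold, while the plain Ckm probe set gives no upper limit.

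Thin filament genes of the shared class showed hardly any difference. Acta1, the skeletal alpha-actin, read 41506 in knockout skin and 39728 in wild type skin, a log2 ratio of 0.06. Tpm1 read 3009 in knockout skin and 2969 in wild type skin (0.02), and Tpm2 read 2939 in knockout skin and 3030 in wild type skin (-0.04). Both encode tropomyosins, which cover the myosin binding sites of actin and have forms in smooth muscle and other cells too. Ldb3, a Z-disc protein also called ZASP or cypher, read 3198 in knockout skin and 2881 in wild type skin (0.15). Mb, or myoglobin, was at the floor, with 62.5 in knockout skin and 24.0 in wild type skin.

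**Figure D3:**
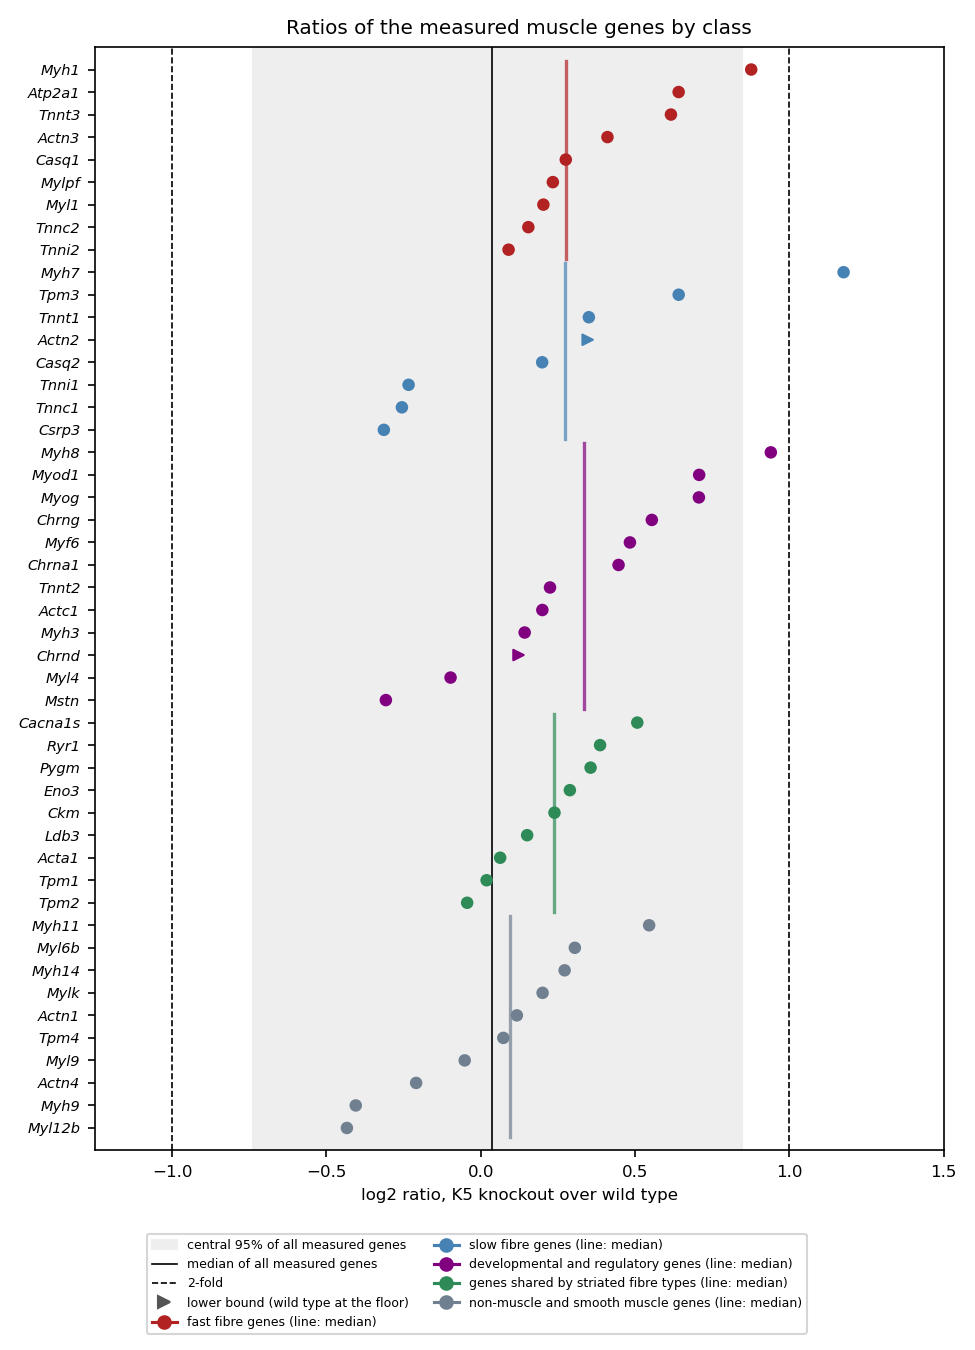
Log2 ratio of K5 knockout over wild type for the 48 measured muscle genes, grouped by class, with a coloured line at each class median (0.28 fast, 0.27 slow, 0.34 developmental and regulatory, 0.24 shared, 0.10 non-muscle and smooth muscle) and the central 95% of all measured genes in grey. Myh7, Myh8 and Myh1 lie beyond the grey range, whose upper end is 0.85, and triangles mark lower bounds.

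Non-muscle and smooth muscle members of the same protein families gave a median nearer to that of all genes. Of 13 genes, 10 were measured, 6 higher and 4 lower, with a median log2 ratio of 0.10 and a range from -0.43 to 0.55. Their summed signal was 33732 in knockout skin and 34966 in wild type skin, a ratio of 0.965. None reached 1.5-fold in either direction.

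Myh11, the smooth muscle myosin heavy chain, read 672 in knockout skin and 460 in wild type skin, a log2 ratio of 0.55, the highest of the class. Mylk, the kinase that activates smooth muscle myosin, read 3639 in knockout skin and 3167 in wild type skin (0.20), and Myl9, the smooth muscle regulatory light chain, read 855 in knockout skin and 887 in wild type skin (-0.05). The contractile genes of smooth muscle thus gave no common direction. Myl12b, a regulatory light chain of non-muscle myosin, read 4743 in knockout skin and 6404 in wild type skin, a log2 ratio of -0.43, the lowest of all 48 measured genes.

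Myh9, the heavy chain of non-muscle myosin IIA, read 1602 in knockout skin and 2120 in wild type skin (-0.40), but -0.06 from a plain probe set. Actn4, a non-muscle alpha-actinin that crosslinks actin, read 5563 in knockout skin and 6431 in wild type skin (-0.21). Actn1, its close relative at focal adhesions, was at 0.12, with values from -0.49 to 0.12 over 3 probe sets. These 3 genes of the general cytoskeleton leaned lower or had mixed signs. Myh14, another non-muscle heavy chain, read 1325 in knockout skin and 1098 in wild type skin (0.27). Myl6b, an essential light chain, read 544 in knockout skin and 440.1 in wild type skin (0.31), and the tropomyosin gene Tpm4 read 11392 in knockout skin and 10827 in wild type skin (0.07). Myh10, Myl6 and Myl10 were at the floor on both arrays, with signals from 34.9 to 181 in the knockout and from 16.3 to 220 in the wild type.

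Probe sets of the same gene gave a check on single values. In 9 of the 61 genes at least 2 probe sets lay above the floor on both arrays. All probe sets had the same direction in 5 of them (Actc1, Actn3, Atp2a1, Chrng and Myh9) and opposite directions in 4 (Actn1, Myl4, Mylpf and Tnnt1). The standard deviation between probe sets of these 9 genes was 0.26 in log2 ratio. Of the 48 measured genes, 22 had a ratio closer to 0 than this spread, so the direction of a single gene with a small ratio is not firm.

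Other genes known from striated muscle that the naming rule does not take, 66 in the list and 43 on the array, were less one-sided. Of 37 measured, 24 were higher, or 64.9% against 53.9% of all measured genes, and 13 lower, with 0 at least 2-fold. Among the 37, 3 exceeded the floor in the knockout alone and so could only be higher. The median log2 ratio was 0.05 against 0.04 over all measured genes. The highest was Fabp3, the fatty acid binding protein of heart and oxidative muscle, at 626 in knockout skin and 364 in wild type skin, a log2 ratio of 0.78. The lowest was Fkbp1a, a partner of the calcium release channel that is expressed in most cells, at 6561 in knockout skin and 8220 in wild type skin (-0.33). Aldoa, the aldolase of muscle and many other tissues and the brightest of the list, was at 0.05. At 1.5-fold, 6 of the 37 were higher, or 16.2% against 7.63% of all measured genes, and 0 were lower, against 5.27%. Cdh15, among these 6, exceeded the floor in the knockout alone. The median of this list thus lay close to that of all genes, while its share past 1.5-fold lay above theirs.

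Markers of other tissues also differed on the same arrays, and their part in the muscle values was not tested. Of 9 heart markers with a probe set, 7 did not exceed the floor on either array, among them Myh6, Tnni3 and Myl7, and the others were Gata4, at 2.08-fold higher (710 in knockout skin and 342 in wild type skin), and Nppa, at 0.10. Dermal fibroblast markers, 11 measured, had 8 higher and 3 lower, with a median of 0.27 and a summed signal of 234791 in knockout skin and 208802 in wild type skin. Suprabasal epidermal markers, 8 measured, had 6 higher, with a median of 0.29 and sums of 190287 in knockout skin and 162590 in wild type skin. The medians of dermal and suprabasal markers were thus about as high as that of the striated muscle genes.

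Smooth muscle markers, 7 measured, had 5 higher and a median of 0.03, with sums of 11180 in knockout skin and 11072 in wild type skin. They ran from -0.67 for Acta2 (1606 in knockout skin and 2559 in wild type skin), the only one past 1.5-fold, to 0.55 for Myh11. Myh11 and Mylk in this list are also among the 61 genes. Endothelial markers, 7 measured, had 4 higher and a median of 0.12, with sums of 8818 in knockout skin and 8484 in wild type skin. Adipocyte markers, 7 measured, had 4 higher and a median of 0.08, with sums of 16425 in knockout skin and 13467 in wild type skin. Schwann cell and nerve markers, 3 measured, were all lower, with a median of -0.17 and sums of 6574 in knockout skin and 7315 in wild type skin. Chondrocyte and erythroid lists had 2 measured genes each, all higher, with medians of 0.40 and 0.31.

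**Figure D4:**
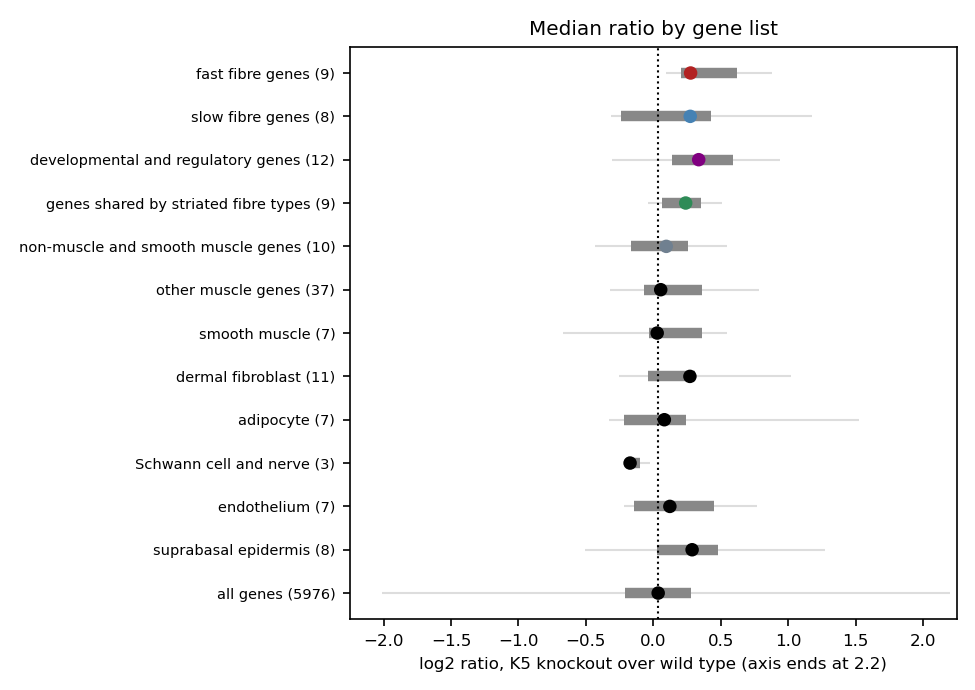
Median log2 ratio of K5 knockout over wild type (points) for each muscle class, the list of other muscle genes, the other tissue lists with at least 3 measured genes and all genes, with the middle 50% of genes (thick bars) and the whole range (thin lines, the axis ends at 2.2) and the number of measured genes in brackets. Striated muscle classes lie at 0.24 to 0.34, dermal fibroblast markers at 0.27, suprabasal epidermal markers at 0.29, other muscle genes at 0.05 and all genes at 0.04 (dotted line).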

How the data were processed

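Skin RNA of K5 knockout and wild type newborn mice, pooled from 6 animals per group, was read on 1 array per group. The authors deposited 1 intensity for each probe set, and the submitters' processing notes name MAS5; its version, scaling target and detection calls are not given in the sources used here. Genes were named from the platform annotation, from probe sets with 1 symbol. From the deposited intensities, both arrays were brought to one 2% trimmed mean, taken over 12422 non-control probe sets (factors of 1.0001 and 0.9999), the floor was set at the 40th percentile, 246.7, and log2 was taken. A ratio with 1 array at the floor is a lower bound. No test was run, because 1 array per group leaves no residual degree of freedom. A share of all measured genes past the same limit is given as the background.

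Fast, slow, developmental, shared and other classes, further muscle genes and tissue markers were listed from general knowledge. Members and lists were chosen with earlier results of these data known. All measured members were named. Of the further muscle genes, the brightest, highest and lowest were named. Pvalb, Hrc, Cacng1, Chrnb1, Chrne and Cdh15 were named as well, outside that choice. Promoter windows came from RefSeq (GRCm38.p6). The ratio calculation was tested on simulated data. Alternatives were another floor, a pseudocount, quantile normalization, a lowess correction, the mean over probe sets, plain probe sets and genes above the floor on both arrays. Python 3.11.15, numpy 2.4.6, pandas 2.3.3 and statsmodels 0.14.6 were used. Precision is limited by having 2 arrays.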

Additional observations from a re-analysis of the deposited data

How the results depend on the processing

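The count of muscle genes at least 2-fold different, 1 of 48, was 2 with the floor at the 25th percentile (Myh7 and Chrnd), 2 with quantile normalization and 2 with the lowess correction (Myh7 and Myh8 in both). It was 0 for a floor at the 60th percentile, 0 when a pseudocount replaced the floor, and 0 with plain probe sets only, where neither Myh7 nor Myh8 has a value, and 8 at a limit of 1.5-fold, which was added after the values were seen. The median of the slow fibre genes was 0.058 for a floor at the 60th percentile, 0.15 with the mean over probe sets and -0.13 with plain probe sets only, which leave out Myh7 and take the other Tnnt1 probe set. The median of the developmental and regulatory genes was 0.47 for the 25th and 0.14 for the 60th percentile as the floor, and 0.45 with genes above the floor on both arrays only. Medians of the fast, shared and non-muscle classes moved by less than the probe set spread over the square root of the gene number in all 8 alternatives. Over these alternatives the striated muscle genes were higher in 78.8% (plain probe sets) to 86.8% (mean over probe sets) of cases, against 49.6% to 55.8% of all genes, with medians from 0.20 to 0.28. At least 1.5-fold higher were 5 with the mean over probe sets, with plain probe sets (of 33) and for a floor at the 60th percentile, 6 with the pseudocount and 8 or 9 otherwise. The fast class had a higher median than the developmental class with quantile normalization, with the lowess correction and for a floor at the 60th percentile. Of the values of single genes under the alternatives, 357 moved by less than 0.30 and 12 by more. No paired analysis was possible because each group has 1 array, and for the same reason no array could be left out.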
